A study of Mus musculus with 19 samples.

Results

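The 4 libraries of normal CD4+CD8+ thymocytes from the retroviral model were set beside the 3 libraries of pre-leukemic bone marrow from the Flt3-ITD knock-in model. These are the non-leukemic baselines of the study's 2 models of FLT3-ITD leukemia, and the question was how their cell identity differs across genes. The libraries were chosen by their labels and not by any measured value. They are 7 of the 17 libraries of the series, and the other 10 are leukemias, 7 of the retroviral model and 3 of the knock-in model. Polyadenylated RNA of C57BL/6 mouse cells was sequenced on Illumina instruments.

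The thymocytes came from lethally irradiated recipients of donor marrow that had been transduced with a retrovirus carrying GFP alone (MSCV-GFP), and the donor-derived CD4+CD8+ cells of the thymus were sorted. WT_GFP thymocytes (2 libraries) had the genotype Mx1-cre+;Dnmt3a+/+;MSCV_GFP. KO3a_GFP thymocytes (2 libraries) had the genotype Mx1-cre+;Dnmt3af/f;MSCV_GFP, with loxP sites in both alleles of the DNA methyltransferase gene Dnmt3a. Both carry Mx1-cre, a Cre recombinase driven by an interferon-inducible promoter. The donor marrow of the KO3a_GFP group was enriched for ckit, while the protocol shared by the retroviral groups names an enrichment for Sca1. The marrow (WT3a_KIFLT3, 3 libraries) had the genotype ER-cre-;Dnmt3af/f;Flt3+/ITD, so it carried 1 Flt3 allele with an internal tandem duplication (ITD) and floxed Dnmt3a alleles without Cre. It was collected in bulk, with no surface marker named, from mice not described as transplanted. Age is not in the labels.

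Tissue, sort, transplantation, retroviral vector, Flt3 genotype and Cre all differ between the 2 sides, so their parts in a difference cannot be told apart. The sides also differ in sex-linked transcripts. Eif2s3y, Kdm5d and Uty of the Y chromosome had no count in any thymocyte library and 35.7 to 60.4 CPM (a gene's count scaled to the total of its library) in the marrow. Xist, the RNA that silences an X chromosome in females, was at 1463 to 2838 CPM in the thymocytes and at 0.178 to 2.26 CPM in the marrow. Of the 5 sex-linked transcripts listed, the 4 of the Y chromosome, Ddx3y included, passed the test used below and Xist did not (adjusted p = 0.0514). None of the 5 passed with the term for the record set described next (adjusted p of 0.055 to 0.0807 for the Y-linked genes and 0.711 for Xist). Sex is therefore another property that cannot be told apart from the group. The same holds for the set of records: the submitters' processing notes name Cuffdiff 2.1.1 for the thymocytes and Cuffdiff 2.2.1 for the marrow. No set holds both groups, so no value within a set can be given. A term for the set could be fitted only because the KO3a_FLT3 leukemias occur in both sets, and since their earlier libraries were collected from marrow and their later ones from thymus, that term also carries tissue. It carries any other difference between these leukemias too. Their sex-linked transcripts summed to 340 and 2276 CPM in the earlier libraries (replicates 1 and 2) and to 334 and 407 CPM in the later ones (replicates 3 and 4). Where the term moves a list's count of 3 or more by more than 1.5 times, the value is given as the count with the record set as a term.

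Total estimated counts were 25034311 and 25331906 in the WT_GFP libraries, 16606962 and 19516953 in the KO3a_GFP libraries, and 5253574, 4933886 and 22347360 in the marrow libraries. Marrow replicates 1 and 2 are thus the shallowest, and a gene at 1 CPM rests on about 5 counts there. The labels call the replicates biological without tying each to an animal, so a p-value here reflects only how much the sequenced samples vary. The test used for the calls below takes this spread from all libraries of the series, leukemias included, and not from the compared libraries alone. Across genes, log2 levels of replicates correlated at 0.995 in WT_GFP, 0.993 in KO3a_GFP and 0.974 to 0.986 in the marrow, and between thymocytes and marrow at 0.827 to 0.865. Genes are not independent replicates, and these values only describe the libraries. On the first principal component of the 7 libraries, which held 89.9% of their variance, thymocytes lay between -85.6 and -71.1 and marrow between 100 and 111.4. The second component held 4.6% and ran mainly between marrow replicates 2 and 3.

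Double-positive thymocytes are the stage of T cell development at which both coreceptors, CD4 and CD8, are on the surface. At this stage RAG1 and RAG2 rearrange the T cell receptor alpha locus, and the cells wait for a signal from their new receptor under factors such as RORγt, TCF1 and BCL11B. Bone marrow holds stem and progenitor cells, which carry KIT, CD34 and FLT3, and their maturing offspring. In the neutrophil line, primary granule genes such as Mpo and Elane are transcribed early, in promyelocytes, and genes such as Camp, Ltf and S100a8 later. FLT3 is a receptor tyrosine kinase of early progenitors, and the ITD makes it signal without its ligand.

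Dnmt3a was read in every library as a check of genotype. Its level, over all exons of the gene model (mm9 chr12:3806980-3914443), was 257 and 250.1 CPM in WT_GFP, 207 and 144 CPM in KO3a_GFP, and 129.6, 154 and 143 CPM in the marrow. The gene total includes exons outside the floxed part, so it does not test the deletion. The KO3a_GFP libraries were lower than the WT_GFP libraries, by 0.53 on the log2 scale, and the difference did not pass the test (edgeR quasi-likelihood test, adjusted p = 1.0). Against the marrow the thymocytes differed by 0.57 ± 0.26 (log2 ± SE, adjusted p = 0.0916), and the groups overlap.

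The thymocytes carried the transcripts their label names. Cd4, the coreceptor that binds MHC class II, was at 1280 and 1660 CPM in WT_GFP and at 1554 and 1270 CPM in KO3a_GFP, against 1.24, 1.13 and 0.723 CPM in the marrow. Cd8a, a chain of the other coreceptor, was at 1808, 1801, 1798 and 1603 CPM against 0.711, 0.189 and 0.128 CPM. No library of one group comes near those of the other. Some markers of late neutrophils, red cell precursors and B cells were low in the marrow, which is labelled as bulk. The neutrophil gene S100a8 was at 41.4, 67.3 and 25.3 CPM there, against 339 to 1182 CPM in the 3 knock-in leukemias, whose labels give the same bulk collection. Ltf, of the later neutrophil granules, was at 15.7 to 56.0 CPM against 330 to 2420 CPM. Alas2, the heme synthesis enzyme of red cell precursors, stayed at or below 0.894 CPM in the marrow, and the B cell factor Pax5 at or below 0.511 CPM. The globin gene Hbb-b1 was at 17.2, 5.28 and 5.02 CPM. Some receptor genes of the neutrophil and monocyte lines were not low there. The G-CSF receptor gene Csf3r was at 80.5 to 137 CPM. The M-CSF receptor gene Csf1r was at 36.2 to 129.9 CPM and the chemokine receptor gene Ccr2 at 20.2 to 106 CPM. The macrophage gene C1qa was at 0.34 to 3.2 CPM. The monocyte gene Ly6c2 was at 21.8 to 69 CPM, against 74.4 to 794 CPM in the 3 knock-in leukemias. Which cells of the marrow held these transcripts, and at what stage, was not tested. Of the early genes, Kit was at 576, 718 and 533 CPM and Cd34 at 797, 785 and 638 CPM. The labels name no enrichment for this group, and the libraries are called marrow here only after their label.

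**Figure D1:**
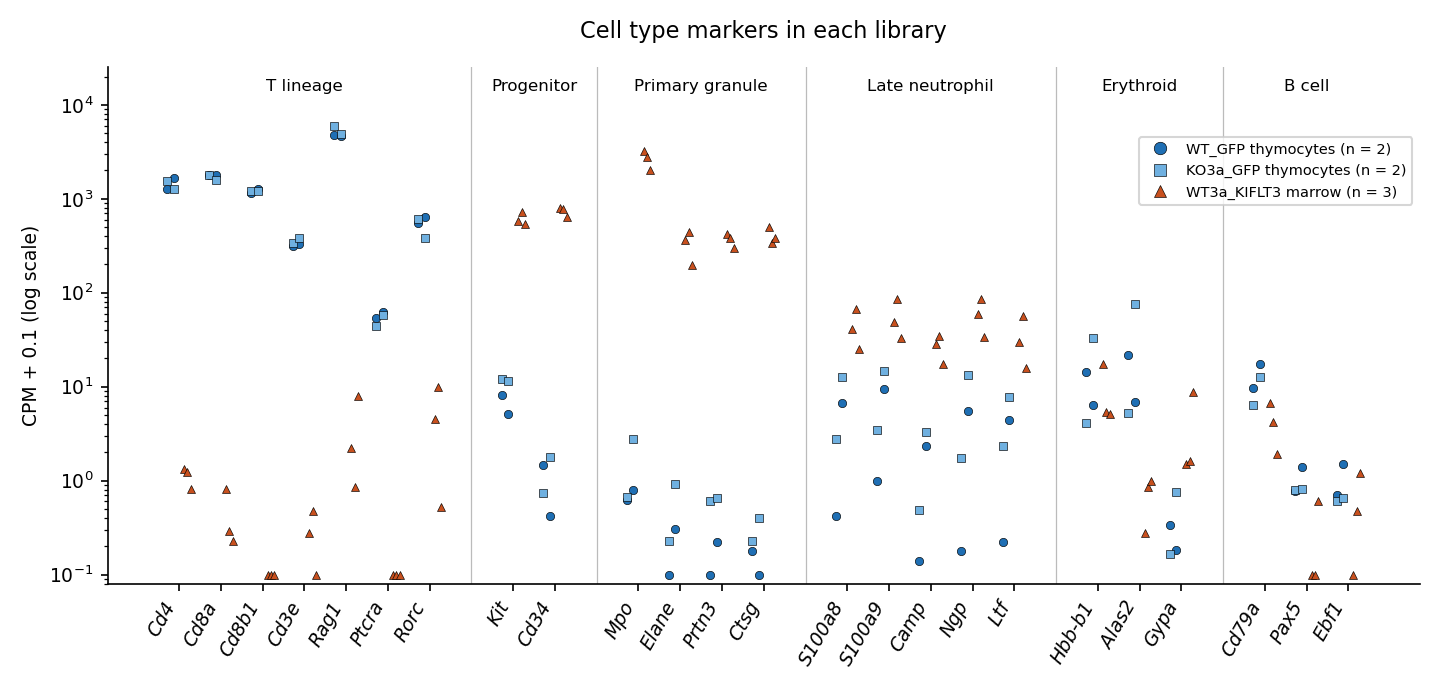
Levels of cell type markers in each library, as CPM + 0.1 on a log axis, for WT_GFP thymocytes (circles, n = 2), KO3a_GFP thymocytes (squares, n = 2) and marrow (triangles, n = 3). T lineage markers separate the groups completely, Kit, Cd34 and the primary granule genes do so the other way, and the late neutrophil, erythroid and B cell markers stay under 100 CPM in all 7 libraries.

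The thymocytes also held low levels of transcripts of other cells. Alas2 was at 21.7 and 6.81 CPM in WT_GFP and at 5.17 and 74.9 CPM in KO3a_GFP, and KO3a_GFP replicate 2 also had the highest S100a8 of the thymocytes, at 12.7 CPM against 0.320 to 6.56 CPM in the others. The macrophage gene C1qa was at 9.96 to 14.5 CPM and the B cell receptor gene Cd79a at 6.32 to 17.5 CPM. Foxn1, the defining factor of thymic epithelium, was at or below 0.0800 CPM. Their part in the differences below was not tested.

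Of 15508 genes tested, 6578 (42.4%) passed the threshold of an adjusted p under 0.05 in edgeR's quasi-likelihood test. Of all genes tested, 3059 (19.7%) were higher in thymocytes and 3519 (22.7%) were higher in marrow. With a fold of at least 4 added to the rule, 984 genes (6.35%) were higher in thymocytes and 2081 (13.4%) in marrow. These shares are the background against which the counts of each gene group are to be read. The range of the differences was wide, with 408 genes at least 16-fold higher in thymocytes and 1205 at least 16-fold higher in marrow. The 2 groups of libraries did not overlap for 9882 genes (63.7%), and the median gene differed by -0.05 on the log2 scale (thymocytes minus marrow throughout). With a term for the record set 3504 genes passed, 1836 higher in thymocytes and 1668 in marrow. Of the 6578 original calls, 2692 were among them in the same direction. Scaling by upper quartiles or by library size alone moved the median gene by -0.14 and -0.12. In bulk RNA, fewer cells of a type and less RNA per cell cannot be told apart.

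**Figure D2:**
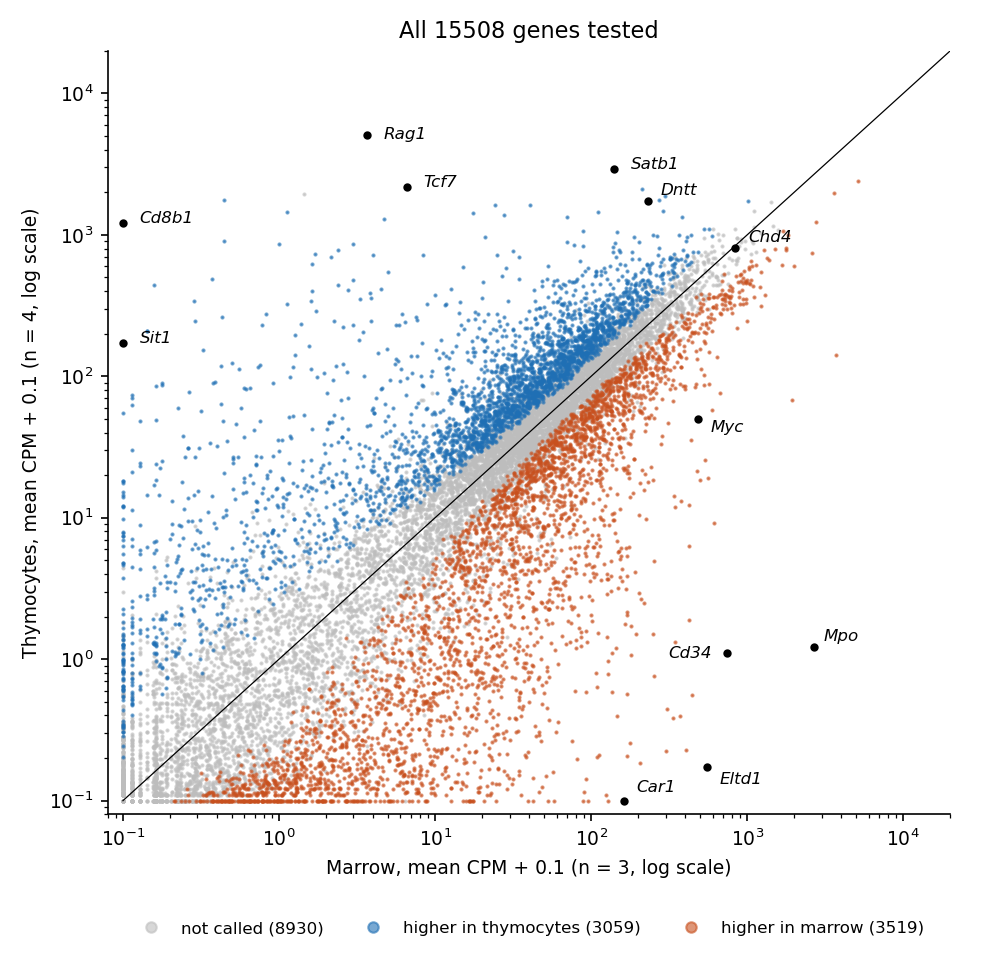
Mean CPM + 0.1 of each of the 15508 genes tested, thymocytes (n = 4, vertical) against marrow (n = 3, horizontal), both on log axes, with the line of equal level. Blue points are the 3059 genes higher in thymocytes, orange points the 3519 higher in marrow and grey points the 8930 that did not pass; Cd8b1 and Sit1 lie at 0 counts in the marrow and Car1 at 0 counts in the thymocytes.

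The 10 genes with the largest difference toward thymocytes, among those with a mean of at least 50 CPM, were Cd8b1, Sit1, Cd3d, Ptcra, Cd8a, Themis, Cd3e, Cd3g, Syt13 and Tdrd5. Most of these are parts or regulators of the T cell receptor. Cd8b1 (mm9 chr6:71272806-71287445), the beta chain of CD8, was at 1164, 1264, 1220 and 1223 CPM and had no count in any marrow library. Against a floor of 3 counts over the marrow group it was at least 13970-fold higher in thymocytes. Sit1 (chr4:43494955-43496581), an adaptor that tunes receptor signalling, was at 172, 211, 153 and 149 CPM, with no marrow count, and at least 2004-fold higher. Themis (chr10:28388201-28602555), needed for positive selection, was at 873, 894, 993 and 872 CPM against 0.533, 0.377 and 0.128 CPM, a difference of 11.74 ± 0.65 on the log2 scale. Floors and counting intervals cover counting error only.

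Of the 25 genes of the T cell receptor complex and its proximal signalling, 24 were higher in thymocytes, 22 of them at least 4-fold, and none was higher in marrow. The median difference of the 25 was 7.5 on the log2 scale, and the count of 24 was the same with the record set as a term. Cd3d (chr9:44789869-44795135), a CD3 chain, was at 479, 512, 377 and 408 CPM in thymocytes, and the marrow libraries held 1 count in all. That is a ratio of 15590 (95% exact binomial counting interval 2799 to 616000). Cd3e, next to it on the chromosome (chr9:44806826-44817673), was at 312, 326, 336 and 386 CPM against 0.178, 0.377 and 0 CPM. Its ratio was 3873 (1325 to 18780), from 3 marrow counts. The remaining member, Ubash3a, a suppressor of receptor signalling, was at 110 to 135 CPM against 32.2 to 65.0 CPM and did not pass (1.35 ± 0.65, adjusted p = 0.11). The summed level of the list was 11990 to 13890 CPM in thymocytes and 463 to 558 CPM in the marrow.

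V(D)J recombination cuts and rejoins the receptor genes, and 7 of its 8 listed genes were higher in thymocytes, with a median of 4.33. Rag1 (chr2:101478411-101489689), a subunit of the cutting enzyme, was at 4795 and 4679 CPM in WT_GFP and at 5920 and 4842 CPM in KO3a_GFP, against 2.13, 0.754 and 7.83 CPM in the marrow (10.30 ± 1.12, adjusted p = 2.91e-05). Rag2, the other subunit, was at 398, 386, 469 and 510.4 CPM against 2.49, 1.13 and 3.23 CPM. For both genes the lowest thymocyte library lies far above the highest marrow library. Dntt, the polymerase that adds untemplated bases at the joins, was named after its values were seen. It was at 1729, 1841, 1675 and 1660 CPM in thymocytes and at 272, 221 and 202 CPM in the marrow (2.90 ± 0.91, adjusted p = 0.021). Ptcra, the pre-TCR alpha chain that pairs with a new beta chain, was at 54.1, 62.4, 44.5 and 57.7 CPM with no marrow count, and at least 638-fold higher. Hmgb1, an abundant cofactor of RAG, did not pass (0.37 ± 0.25, adjusted p = 0.246).

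The promoters of Ptcra and Cd3d are shown because these genes were among the most separated on the thymocyte side and each holds a short motif of a factor family that acts in T cells. The 150 bases before the start are from RefSeq (GRCm38.p6, not the mm9 build of the counts), on the strand of the gene, with the motif in capitals: the E-box CAGCTG, 2 times, in Ptcra (chr17:46763713-46763862, minus strand) and the TCF/LEF motif ATCAAAG in Cd3d (chr9:44981636-44981785, plus strand).
Ptcra: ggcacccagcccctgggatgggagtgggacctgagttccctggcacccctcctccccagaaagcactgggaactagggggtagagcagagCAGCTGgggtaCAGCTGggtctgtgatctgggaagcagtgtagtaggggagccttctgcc
Cd3d: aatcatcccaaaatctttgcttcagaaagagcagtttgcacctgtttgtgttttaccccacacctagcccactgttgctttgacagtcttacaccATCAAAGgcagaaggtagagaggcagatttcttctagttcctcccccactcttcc
RefSeq windows of 250 bases before to 50 after the start were found for 11245 of the 15508 genes tested (14271 windows). On either strand, CAGCTG occurred in 16.1% of these windows, in 20.4% of the 914 windows of genes at least 4-fold higher in thymocytes and in 18.3% of the 1840 windows of genes at least 4-fold higher in marrow. ATCAAAG occurred in 2.6%, 3.06% and 2.17% of the same sets. A match is a description of the letters and not of binding.

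Of 28 genes listed for double-positive thymocytes, 26 were higher in thymocytes, 22 of them at least 4-fold, with a median of 4.55. Endou, an RNA-cutting enzyme abundant at this stage, was at 794, 925, 701 and 687 CPM against 2.67, 1.51 and 2.68 CPM (8.36 ± 0.66). Tdrd5, a Tudor-domain protein better known from germ cells, was at 221, 267, 205 and 149 CPM, and the marrow held 3 counts, a ratio of 2461 (842 to 11940). Cd24a, a surface protein that many immature blood cells share, did not pass (-0.17 ± 0.39), with thymocytes at 306 to 357 CPM and marrow at 355 to 407 CPM. Nlrp6, an inflammasome sensor, was the single member higher in marrow, at 0.178, 1.70 and 1.62 CPM against at most 0.0800 CPM. Its call (adjusted p = 0.0319) was lost in 6 of the 7 fits that left out 1 library, with adjusted p up to 0.106.

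Transcription factors of the T lineage were also higher in thymocytes, 15 of 20 with none in the other direction and a median of 2.54. Tcf7, which encodes TCF1, was at 2108, 1976, 2382 and 2180 CPM against 5.87, 5.47 and 8.09 CPM (8.36 ± 0.51, adjusted p = 4.89e-07). Bcl11b, which holds cells to the T lineage, was at 616, 712, 847 and 751 CPM against 2.67, 1.89 and 0.213 CPM (9.14 ± 0.79). Id3, an inhibitor of E proteins, was at 111, 102, 65.5 and 78.7 CPM against 0.711, 0 and 0.128 CPM (8.52 ± 1.13). The 5 that did not pass were Bach2, Gata3, Sox4, Tcf3 and Zfp35. Gata3, which T cells need at several stages, was at 87.96 to 104 CPM against 14 to 33.9 CPM (2.08 ± 0.82, adjusted p = 0.0576), with no overlap between the groups.

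The coreceptor list included regulators that choose between the CD4 and CD8 fates, and these were split. Of 10 genes, 5 were higher in thymocytes (Cd4, Cd8a, Cd8b1, Tox and Patz1) and 1 was higher in marrow. Over all genes tested, the shares were 19.7% and 22.7%. Tox, needed for CD4 T cell development, was at 151, 178, 153 and 153 CPM against 34.0, 42.2 and 5.28 CPM (2.57 ± 0.72). Runx3, which silences Cd4 in CD8 cells, went the other way, at 29.3, 26.5, 14.4 and 15.9 CPM against 151, 163 and 191 CPM (-3.03 ± 0.69, adjusted p = 0.00372). Its difference was -0.78 with the record set as a term (adjusted p = 0.545). Patz1, a repressor of the gene for another lineage regulator, was the weakest of the calls (0.82 ± 0.24, adjusted p = 0.0154). Its adjusted p was 0.058 without KO3a_GFP replicate 1 and 0.059 without marrow replicate 1. With the record set as a term, Patz1 (0.17, adjusted p = 0.765) and Tox (3.25, adjusted p = 0.0589) did not pass. Cd4, Cd8a and Cd8b1 still did.

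Notch signalling starts the T program and is turned down at the double-positive stage. Of its 15 listed genes, 5 were higher in thymocytes and 4 in marrow, beside 19.7% and 22.7% of all genes tested. Notch3 was at 109, 122, 90.5 and 80.8 CPM against 3.38, 3.58 and 3.19 CPM (4.88 ± 0.71). Dtx1, a target and regulator of Notch, was at 31.2, 24.2, 25.2 and 26.4 CPM against 0.533, 0.754 and 0.0426 CPM (6.54 ± 1.24). Il2ra, the alpha chain of the IL-2 receptor, Tcf7 and Ptcra made up the rest of the thymocyte side. On the marrow side were the receptor Notch2 (-2.05 ± 0.36), the growth factor receptor Igf1r (-2.33 ± 0.41), the Deltex relative Dtx4 (-4.53 ± 0.71) and Myc (-3.30 ± 0.25). Myc, a driver of cell growth, was at 49.5, 41.3, 43.4 and 63.7 CPM in thymocytes and at 475, 447 and 531 CPM in the marrow.

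The 10 genes with the largest difference toward the marrow, by the same rule, included Car1, Mmrn1, Tie1, Myct1, Eltd1, Ces2g, Ctsg, Ms4a3 and Mpo. They mix genes of progenitor and endothelial cells (Tie1, Eltd1, Myct1), of platelets (Mmrn1), of red cell precursors (Car1) and of early granules (Ctsg, Ms4a3, Mpo). Eltd1 (chr3:151100846-151208045), an adhesion receptor, was at 466, 640.2 and 560.1 CPM in the marrow and at most 0.253 CPM in a thymocyte library (-13.08 ± 0.99). Car1 (chr3:14766214-14808365), a carbonic anhydrase, was at 61.7, 116 and 308 CPM in the marrow and had no thymocyte count, so it was at least 6742-fold higher in marrow. Its marrow replicates spread more than those of Eltd1, with replicate 3 the highest.

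Stem and progenitor genes had the lowest median of the 31 cell and pathway lists, -6.67 on the log2 scale (-6.16 with 2 genes set to their bound). Of 31 genes, 25 were higher in marrow and 2 in thymocytes, and 17 were higher in marrow with the record set as a term. Kit, the receptor for stem cell factor, was at 8.12, 5.06, 11.9 and 11.3 CPM in thymocytes against 576, 718 and 533 CPM (-6.12 ± 1.05). Cd34 was at 1.36, 0.324, 0.639 and 1.67 CPM against 797, 785 and 638 CPM (-9.53 ± 1.35). Gata2, a factor of stem, mast and megakaryocytic cells, was at 0.280, 0, 0.0639 and 0.152 CPM against 242, 368 and 295 CPM (-11.14 ± 1.43). Meis1, a homeobox cofactor of stem cells and leukemias, was at most 0.160 CPM against 170.0, 290.0 and 158 CPM (-11.15 ± 1.05). In each of these genes the lowest marrow library was more than 10 times the highest thymocyte library. Flt3 itself was at 3.72, 1.78, 2.56 and 3.29 CPM against 269, 187 and 156 CPM (-6.16 ± 0.63, adjusted p = 1.86e-05), and the counts do not separate its 2 alleles in the marrow.

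The 2 members higher in thymocytes are known outside stem cells too. Slamf1, a self-binding receptor of the SLAM family, was at 115, 138, 142 and 128 CPM against 18.7, 39.8 and 13.1 CPM (2.46 ± 0.39). Egr1, an immediate early gene, was at 118 to 154 CPM against 14 to 34.5 CPM (adjusted p = 0.0369), and this call was lost when any 1 of the 7 libraries was left out (adjusted p 0.058 to 0.121). Ly6a, which encodes the Sca1 antigen, did not pass, at 9.45 to 18.8 CPM against 22.0 to 35.02 CPM (-1.02 ± 1.06).

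Of 18 primary granule genes, 14 were higher in marrow, 12 of them at least 4-fold, and none was higher in thymocytes. Their median was -4.33. The counts were 9 in marrow and 2 in thymocytes with the record set as a term. Mpo (chr11:87607286-87617914), the peroxidase of the primary granules, was at 0.520, 0.689, 0.575 and 2.68 CPM in thymocytes against 3191, 2761 and 2026 CPM (-11.36 ± 1.18). Elane (chr10:79349057-79350961), neutrophil elastase, was at 0, 0.203, 0.128 and 0.810 CPM against 361, 441 and 197 CPM (-10.48 ± 1.19). The proteases Ctsg and Prtn3 had the same pattern, at 341 to 497 and 298 to 425 CPM in the marrow and at most 0.304 and 0.557 CPM in thymocytes. The lysozyme gene Lyz2 did not pass (-1.77), and since Lyz1 and Lyz2 are near-identical copies their split is uncertain.

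The Elane promoter is shown for the marrow side because it holds a match, while the same stretch of Mpo held none of the 7 motifs searched. Its 150 bases before the start (RefSeq, GRCm38.p6 chr10:79886162-79886311, plus strand) hold 1 match, in capitals, to GAGGAAGT, the core motif of PU.1, a factor of the myeloid line.
Elane: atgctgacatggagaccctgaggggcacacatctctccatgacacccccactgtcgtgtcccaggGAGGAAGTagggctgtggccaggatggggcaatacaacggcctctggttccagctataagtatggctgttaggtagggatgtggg
In the 300-base windows GAGGAAGT occurred on either strand in 3.16% of all windows, in 2.83% of those of genes at least 4-fold higher in marrow and in 3.06% of those at least 4-fold higher in thymocytes. The 3 shares are close, and no test was made of them. The palindrome TGACGTCA, bound by CREB and ATF factors, occurred in 2.77% of all windows, 1.03% of the marrow set and 2.52% of the thymocyte set.

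Fewer genes of the later steps of the neutrophil and monocyte lines passed. Of 30 late neutrophil granule genes, 10 were higher in marrow and none in thymocytes, with 20 that did not pass. Of all genes tested, 22.7% were higher in marrow. The list's count was 5 without KO3a_GFP replicate 1, 6 without WT_GFP replicate 1, 4 with the record set as a term, and 22 of 24 tested in a fit of the 7 libraries alone. Csf3r, the receptor for G-CSF, was at 0.720, 0.729, 0.383 and 0.962 CPM against 80.5, 105 and 137 CPM (-7.24 ± 1.12). Anxa1, an anti-inflammatory annexin, was at 1.02 to 3.49 CPM against 95.4 to 107 CPM (-5.31 ± 0.98). S100a8 itself did not pass (-3.11 ± 1.33, adjusted p = 0.0761), nor did its partner S100a9 (-3.03, adjusted p = 0.0769), although the groups do not overlap for either. Their thymocyte libraries spread widely, and KO3a_GFP replicate 2 was the highest in both. The test takes its spread from all 17 libraries, and S100a8 ran from 3.56 to 223 CPM within the retroviral WT3a_FLT3 leukemias. The part of either spread in these misses was not tested.

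Of 31 monocyte and macrophage genes, 5 were higher in marrow, 1 was higher in thymocytes and 25 did not pass. The share of all genes tested that was higher in marrow was 22.7%. Ccl9, a chemokine, was at 238, 121 and 150.3 CPM in the marrow and at most 0.575 CPM in thymocytes (-8.50 ± 1.52). Ms4a6c, Ccr2, Tlr2 and Ly6c2 were the other 4, with differences of -2.39 to -3.60. The adjusted p of Ccr2 was 0.055 without marrow replicate 1, and that of Ly6c2 was 0.063 to 0.133 in the 6 leave-out fits that lost it. With the record set as a term none of the 31 was higher in marrow and 4 were higher in thymocytes. In the KO3a_FLT3 leukemias on which that term rests, the list summed to 8872 CPM in replicate 4 and to 363 to 962 CPM in the others. The marrow count was 3 without marrow replicate 1 and 13 in a fit of the 7 libraries alone. Csf1r, the M-CSF receptor, was at 5.11 to 9.22 CPM against 129.9, 36.2 and 53.7 CPM, and the difference of -3.34 missed the threshold (adjusted p = 0.0563).

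Genes of megakaryocytes and of mast cells and basophils were high in the marrow. Of 19 megakaryocyte and platelet genes, 16 were higher in marrow and none in thymocytes, with a median of -6.09 and 11 with the record set as a term. Vwf, the platelet and endothelial adhesion protein, was at 161, 309 and 40.2 CPM in the marrow and at most 0.203 CPM in thymocytes (-10.54 ± 1.26). Itga2b, the integrin chain CD41, was at 117, 167 and 207 CPM against 1.22 to 1.99 CPM (-6.62 ± 0.75). Marrow replicate 2 had the most Vwf, while replicate 3 had the most Itga2b, so the 3 replicates were not ranked alike by the members of this list.

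Of 22 mast cell, basophil and eosinophil genes, 17 were higher in marrow and 1 in thymocytes, with a median of -5.43, and 8 were higher in marrow with the record set as a term. Mcpt8, a protease of basophils, was at 90.7, 18.5 and 35.4 CPM in the marrow, and the thymocytes held 0.101 CPM in 1 library and none in the rest. Prss34, another mast cell and basophil protease, was at 217, 17.7 and 7.28 CPM against at most 0.304 CPM (-9.80 ± 1.89). Marrow replicate 1 was the highest in both. Ccr3, an eosinophil receptor, was the member higher in thymocytes, at 0.958 to 4.51 CPM against 0.189 to 0.711 CPM, and its call (adjusted p = 0.0427) was lost in 6 of the 7 fits that left out 1 library (adjusted p up to 0.158).

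Erythroid genes divided by stage. Of 31, 15 were higher in marrow and 4 in thymocytes, beside 22.7% and 19.7% of all genes tested. Those higher in marrow included Tfr2, a transferrin receptor of early erythroid cells, at 75.01, 113 and 137 CPM against at most 0.200 CPM (-10.36 ± 1.44), and Rhag, a red cell membrane protein, at 4.80, 6.98 and 35.2 CPM with no thymocyte count, at least 733-fold higher. Marrow replicate 3 was the highest of the marrow libraries for Car1, Tfr2 and Rhag. On the thymocyte side were Alas2 (5.09 ± 1.25, adjusted p = 0.0059), Hba-a1 (2.06 ± 0.67, adjusted p = 0.0255), the iron carrier Slc25a37 (1.90 ± 0.43) and the cytoskeletal gene Epb4.1 (1.25 ± 0.24). Hba-a1 and Hbb-b1 have near-identical copies, which makes their split uncertain. Hba-a1 lost its call in 5 of the 7 leave-out fits (adjusted p 0.149 without KO3a_GFP replicate 2), and Hbb-b1, which did not pass (0.62, adjusted p = 0.536), turned to -0.49 without that library.

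The summed levels of these lists place the marrow among the other knock-in libraries. Stem and progenitor genes summed to 660.1 to 703 CPM in thymocytes, 3911 to 5845 CPM in the marrow and 888.4 to 3588 CPM in the 3 knock-in leukemias, so the marrow was above all of them. For late neutrophil granule genes the order was reversed, with 562 to 825 CPM in the marrow and 3883 to 21660 CPM in the leukemias, against 37.0 to 114 CPM in thymocytes. Monocyte and macrophage genes summed to 411 to 946 CPM in the marrow and 1102 to 10710 CPM in the leukemias. Mast cell, basophil and eosinophil genes summed to 1423 to 1668 CPM in the marrow, 448 to 916 CPM in the leukemias and 22.7 to 48.5 CPM in thymocytes. These sums were not tested.

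**Figure D3:**
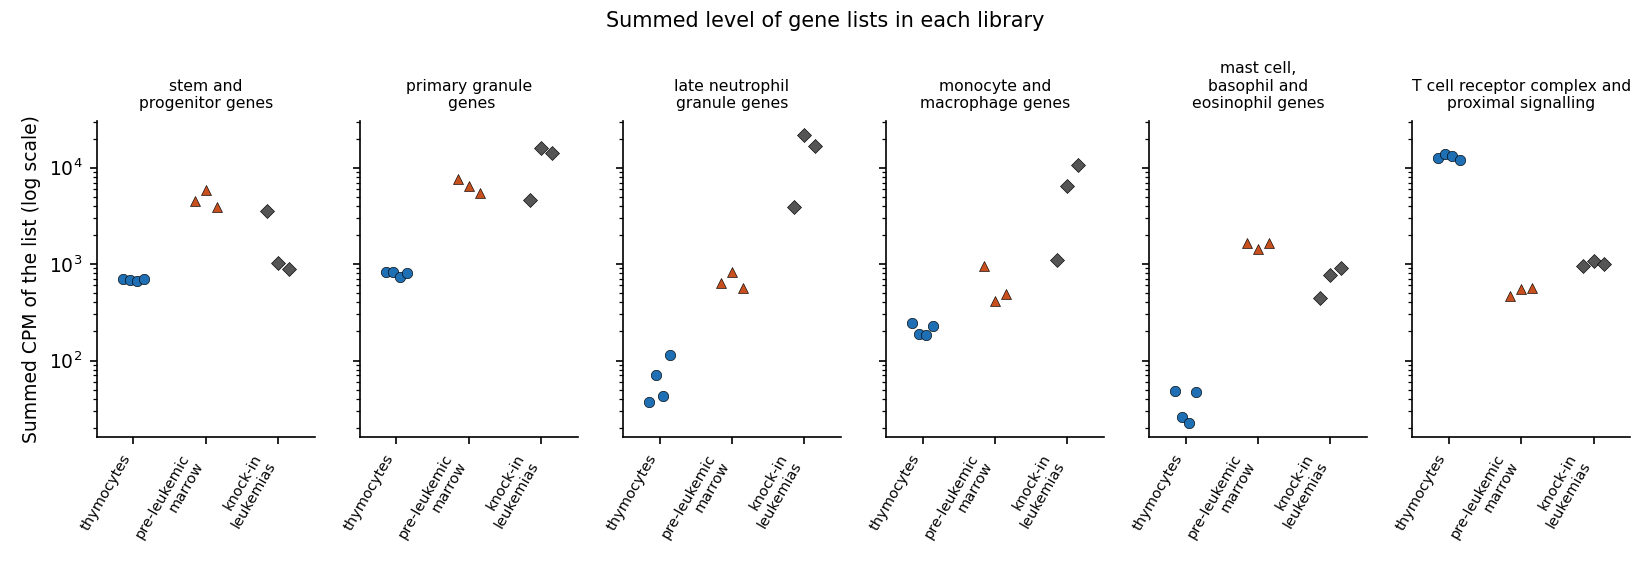
Summed CPM (log axis) of 6 gene lists in each thymocyte library (n = 4), marrow library (n = 3) and knock-in leukemia (n = 3). The marrow lies above the leukemias for stem and progenitor genes and for mast cell, basophil and eosinophil genes, below them for late neutrophil and for monocyte genes, and the thymocytes lie above both only for the T cell receptor list.

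Factors that direct the myeloid lines were higher in marrow in 10 of 19 cases and higher in thymocytes in 4, with a median of -2.40. Over all genes tested, the shares were 22.7% and 19.7%. The list's counts became 1 and 6 with the record set as a term. Nfe2, a factor of megakaryocytes and red cells, was at 0.383 to 1.80 CPM in thymocytes against 218 to 294 CPM (-7.49 ± 0.97). Tfec was at 0.203 to 0.600 CPM against 25.7 to 40.0 CPM (-6.6 ± 1.18). Egr2, which receptor signals induce in T cells, was at 37.4, 32.4, 30.0 and 34.8 CPM in thymocytes against 0, 0.566 and 0.213 CPM (7.05 ± 1.54). Gfi1, a repressor in both T cells and neutrophils, was also higher in thymocytes, at 174 to 220.1 CPM against 52.6 to 57.4 CPM (1.80 ± 0.31), as was the retinoic acid receptor Rara (1.62 ± 0.47, adjusted p = 0.0146, and 0.058 without marrow replicate 3).

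Genes of the early T progenitor and double-negative stages, which precede the double-positive stage, were mostly higher in marrow, 15 of 22, with 4 higher in thymocytes and a median of -5.51. The list shares members with the stem and progenitor list, such as Kit and Gata2. Tal1, a stem and red cell factor that is shut off in T cells, was at 132, 203 and 199 CPM in the marrow and at most 0.400 CPM in thymocytes (-10.41 ± 1.90). Il2ra, a mark of the double-negative stage, was higher in thymocytes, at 55.4, 44.9, 49.95 and 68.8 CPM against 8.18, 3.02 and 0.723 CPM (3.91 ± 0.78). The marrow count was 9 with the record set as a term.

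Few genes of other lymphoid cells passed the test. Of 30 B lineage genes, 3 were higher in thymocytes (Rag1, Fam129c and Bank1), 1 was higher in marrow (Cd72) and 26 did not pass. Over all genes tested, 19.7% were higher in thymocytes and 22.7% in marrow. The list's count higher in thymocytes was 6 with DESeq2, 7 with the record set as a term and 14 in a fit of the 7 libraries alone. Cd79a was at 9.64, 17.5, 6.32 and 12.7 CPM against 6.58, 4.15 and 1.83 CPM and overlapped between the groups (1.46 ± 1.22, adjusted p = 0.359). Cd72, a B cell inhibitory receptor, was at 6.13 to 7.88 CPM against 23.6 to 31.5 CPM (-1.91 ± 0.68), and its call was lost when any 1 of the 7 libraries was left out (adjusted p 0.062 to 0.104). Bank1 had an adjusted p of 0.0108, and of 0.051 without marrow replicate 3.

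Of 22 NK and cytotoxic cell genes, 5 were higher in thymocytes, 1 was higher in marrow and 16 did not pass. Of all genes tested, 19.7% were higher in thymocytes. The list's count higher in thymocytes was 9 with the record set as a term and 16 in a fit of the 7 libraries alone. Gzma, a granzyme, was at 55.7, 64.5, 62.4 and 54.2 CPM against 0, 0.377 and 0 CPM, a ratio of 1018 (282 to 8408) from 2 marrow counts. Perforin, Prf1, was at 3.96 to 6.97 CPM against at most 0.340 CPM (4.75 ± 0.94), and Il2rb at 21.7 to 47.2 CPM against 1.32 to 3.75 CPM (3.81 ± 0.65). Ncr1, a defining receptor of NK cells, was at most 0.365 CPM in thymocytes and at 0.189 to 1.575 CPM in the marrow. Klrb1c, another NK receptor gene, was at 3.13 to 11.6 CPM in thymocytes and at 3.53 to 15.65 CPM in the marrow. Which cells held these transcripts was not tested. Klra9, of a family of close copies, and Ifng had no marrow count and were at least 56.5-fold and at least 7.96-fold higher, and Ifng lost its call in 6 of the 7 leave-out fits (adjusted p up to 0.111). Nkg7, which myeloid progenitors share with cytotoxic cells, was the member higher in marrow (-3.09 ± 0.96), with an adjusted p of 0.058 to 0.084 in the 3 leave-out fits that lost it and a difference of -0.01 with the record set as a term.

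Dendritic cell and MHC class II genes gave 3 higher in thymocytes and 4 in marrow of 26 (7 and 13 in a fit of the 7 libraries alone, 1 in marrow with the record set as a term). The shares over all genes tested were 19.7% and 22.7%. Ccr9, a thymus and gut homing receptor, was at 1340.0, 1375, 1339 and 1157 CPM against 6.75, 5.47 and 1.53 CPM (8.24 ± 1.25), and Ly6d and Cacnb3 were the other 2 on that side. These 3 are also transcribed by lymphoid cells. On the marrow side, besides Flt3, H2-DMa, a chaperone of peptide loading, was at 17.9 to 26.8 CPM against 116 to 133 CPM (-2.54 ± 0.47). H2-DMb1 and Tcf4 were the rest, and the calls of both were lost in some leave-out fits (adjusted p up to 0.063 and 0.067). Of the stromal collagen genes, Col1a1 was at most 1.34 CPM and Col3a1 at most 0.192 CPM in all 7 libraries. Other stromal markers were clearly detected in the marrow: Pdgfrb, a receptor of mural and mesenchymal cells, at 72.5 to 88.8 CPM, the matrix gene Bgn at 4.98 to 42.0 CPM and Col1a2 at 3.91 to 8.86 CPM. Of 22 marrow stroma and endothelial genes 6 were higher in marrow, led by Emcn, which stem cells share with endothelium, at 16.9, 17.3 and 3.45 CPM with no thymocyte count (at least 221-fold). The count was 3 without either KO3a_GFP library and 1 with the record set as a term. In the KO3a_FLT3 leukemias on which that term rests, the list summed to 3662 CPM in replicate 4 and to 258 to 499 CPM in the others. Of 18 thymic stroma genes, Cldn4 was higher in thymocytes (a ratio of 300.3, 103 to 1457, from 3 marrow counts) and Col1a2, Pdgfrb, Prss16 and Dll4 were higher in marrow, a count of 1 to 2 in 6 of the 7 leave-out fits. The marrow count was 1 with the record set as a term, where Pdgfrb was at -0.57 and Prss16 at 1.48 on the log2 scale, and in a fit of the 7 libraries alone 5 of 11 tested were higher in thymocytes and 4 in marrow. Dll4 overlapped between the groups.

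Few cell cycle genes passed the test in the fit of all 17 libraries. Of 36 genes of S phase and mitosis, 2 were higher in marrow and none in thymocytes, a share below the background of 42.4%, and the median was 0.26. The 2, the replication genes Mcm3 (-1.16 ± 0.42, adjusted p = 0.0389) and Cdt1 (-1.04 ± 0.35, adjusted p = 0.0281), lost their calls in 7 and 5 of the 7 leave-out fits (adjusted p up to 0.12). The summed level of the list was 4859 to 8786 CPM in thymocytes and 4822 to 8292 CPM in the marrow, so the ranges cover each other. In the fit with the record set as a term, 7 were higher in marrow, and in a fit of the 7 libraries alone 7 were higher in thymocytes and 9 in marrow. A miss of the threshold does not show that the groups cycle alike.

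Among genes that did not pass, the 6 with the highest level and a 95% interval within 0.5 on either side of 0 were Atp5b, Cfl1, Chd4, Hnrnpk, Gnai2 and Pfn1. Chd4, a chromatin remodeller, was at 808, 838, 856 and 713 CPM in thymocytes and at 798, 855 and 864 CPM in the marrow. Cfl1 and Pfn1, which turn over actin filaments, were at 902 to 967 and 491 to 622 CPM against 800 to 993 and 526 to 604 CPM. In all, 573 genes had such an interval.

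**Figure D4:**
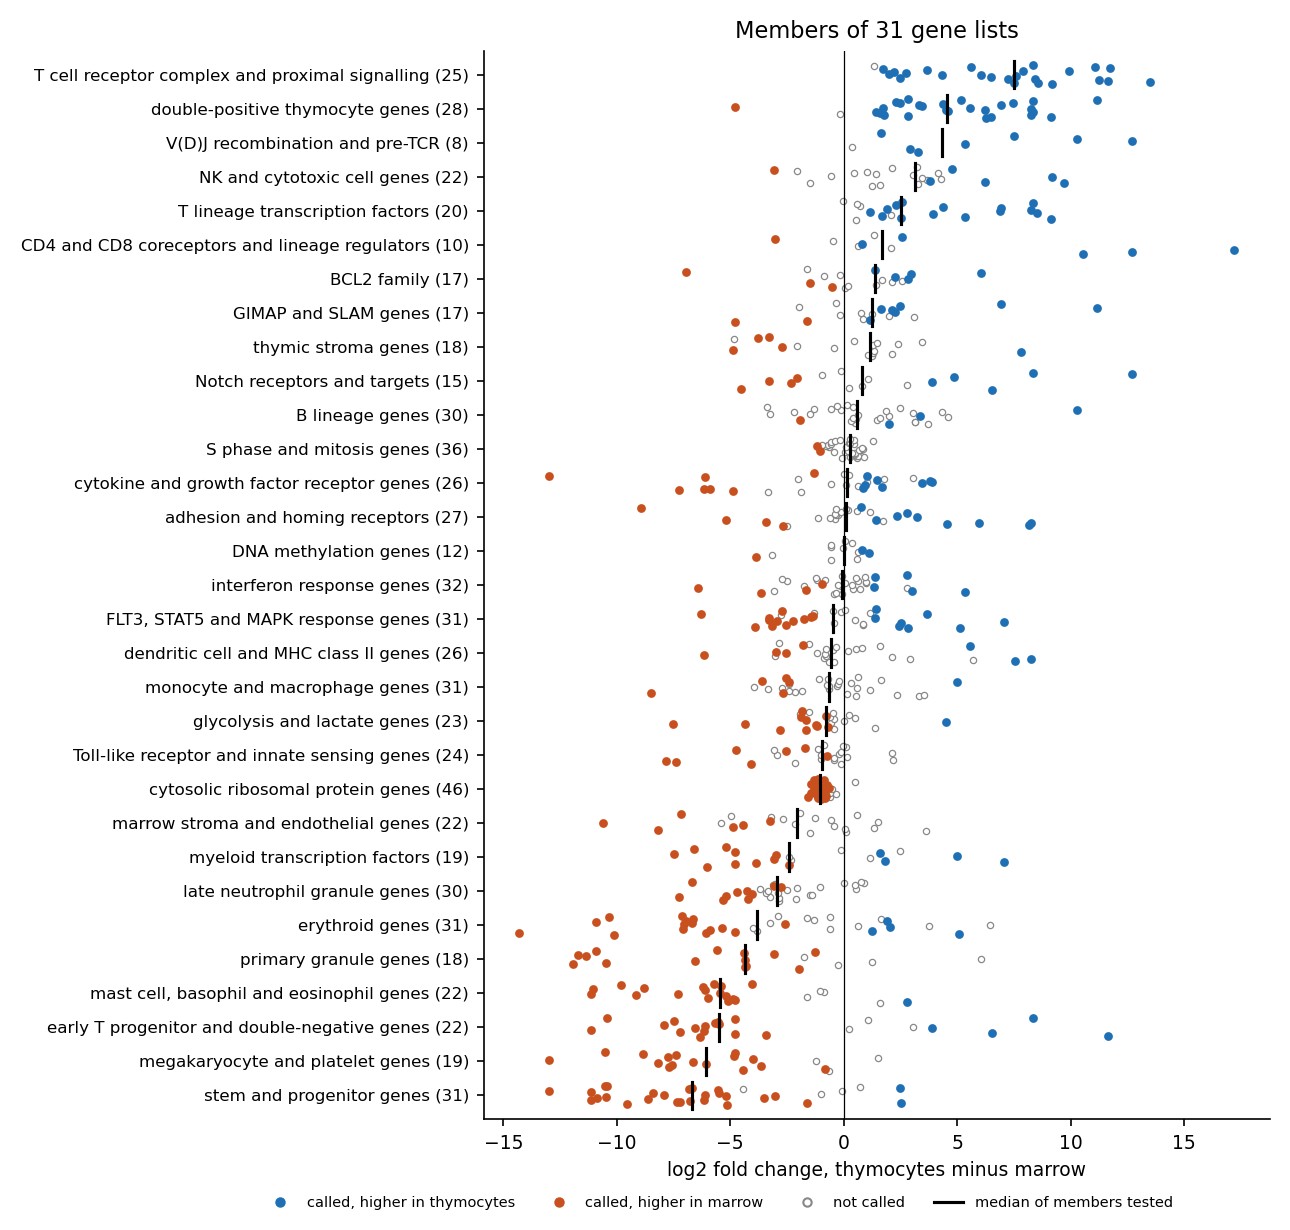
Log2 fold change (thymocytes minus marrow) of every tested member of 31 gene lists, ordered by the median (bar), with the number of members in brackets; filled points passed the test and open points did not. Genes with no count on one side are drawn at their fitted value, which is no bound. The T cell receptor list lies highest and the stem and progenitor list lowest, while ribosomal protein genes form a narrow cluster near -1.04.

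Ribosomal protein genes were higher in marrow in 40 of 46 cases and by a similar small amount, with a median of -1.04 and none at least 4-fold. Rpl14 was at 333, 296, 325 and 372 CPM against 1090.0, 1115 and 734 CPM (-1.57 ± 0.22), and Rpl3 at 548 to 687 CPM against 1198 to 1992 CPM (-1.43 ± 0.23). Marrow replicate 3, the deep one, was the lowest of the marrow in both. With the record set as a term 6 of the 46 were higher in marrow.

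Glycolysis genes were higher in marrow in 11 of 23 cases and in thymocytes in 1 (7 and 1 with the record set as a term). Over all genes tested, the shares were 22.7% and 19.7%. Hk2 and Hk3, hexokinases that start glycolysis, were at 4.13 to 7.09 and 0.760 to 1.47 CPM in thymocytes against 98.6 to 118 and 163 to 211 CPM (-4.34 ± 0.44 and -7.54 ± 1.01). Ldhb, the lactate dehydrogenase chain of oxidative tissues, was the member higher in thymocytes, at 488, 557, 411 and 384 CPM against 21.3, 32.4 and 6.89 CPM (4.52 ± 0.74).

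Of 31 genes listed as responses to FLT3, STAT5 and MAPK signalling, 12 were higher in marrow and 8 in thymocytes, with a median of -0.48. The shares over all genes tested were 22.7% and 19.7%. Without 1 library the marrow count fell to 5 to 8, and it was 4 with the record set as a term. Socs2, a feedback inhibitor induced by STAT5, was at 1.88, 0.729, 0.958 and 2.13 CPM in thymocytes against 146, 120.3 and 65.3 CPM (-6.27 ± 0.93). Bcl6, which STAT5 represses in several cell types, was at 238, 255, 317 and 237 CPM against 6.75, 6.79 and 8.81 CPM (5.12 ± 0.81). The D cyclins, named after their values were seen, went in both directions: Ccnd1 (-3.93 ± 0.54) and Ccnd2 (-3.15 ± 1.02) were higher in marrow and Ccnd3 was higher in thymocytes, at 680 to 806 CPM against 121 to 167 CPM (2.45 ± 0.23).

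Of 26 receptors for cytokines and growth factors, 8 were higher in thymocytes and 7 in marrow, beside 19.7% and 22.7% of all genes tested. The marrow count was 4 with the record set as a term. Csf3r, Flt3 and Kit were on the marrow side, and the IL-2 receptor chains Il2ra and Il2rb on the thymocyte side. Il7r, which double-positive cells are known to turn down, was at 36.2 to 96.3 CPM against 4.53 to 14.2 CPM, and its difference of 3.06 ± 1.20 missed the threshold (adjusted p = 0.0555). Of 24 Toll-like receptor and innate sensing genes, 7 were higher in marrow and none in thymocytes, beside 22.7% and 19.7% of all genes tested. With the record set as a term the 7 became 0. Clec4e, a sensor of dying cells and mycobacteria, was at 48.9, 63.3 and 70.1 CPM in the marrow and at most 0.304 CPM in thymocytes (-7.82 ± 1.34). Tlr4, the sensor of lipopolysaccharide, was at 16.5 to 24.7 CPM against 0.486 to 0.880 CPM (-4.76 ± 1.11).

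Of 27 adhesion and homing receptors, 9 were higher in thymocytes and 4 in marrow (Selp, Cxcr2, Cd44 and Ccr2). The shares over all genes tested were 19.7% and 22.7%. The marrow count was 2 with the record set as a term and 9 in a fit of the 7 libraries alone. Ccr4, a chemokine receptor, was at 60.3, 60.1, 60.8 and 71.8 CPM against 0.178, 0.754 and 0.0426 CPM (8.17 ± 0.85). Selp, P-selectin, was at 137, 186 and 117 CPM in the marrow against at most 0.511 CPM (-8.94 ± 1.30). Cd44, a hyaluronan receptor that is low on double-positive cells, was at 30.0, 16.6, 19.0 and 26.0 CPM against 241, 222 and 266 CPM (-3.41 ± 0.87), and with the record set as a term its difference was -0.81 (adjusted p = 0.659).

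In the BCL2 family, which sets the threshold for apoptosis, 5 of 17 genes were higher in thymocytes and 3 in marrow. The shares over all genes tested were 19.7% and 22.7%. Bcl2l1, which encodes BCL-xL and keeps double-positive cells alive, was at 285, 371, 258 and 238 CPM against 36.8, 49.4 and 33.1 CPM (2.85 ± 0.31). Bcl2 was at 56.4 to 72.1 CPM against 169 to 201 CPM (-1.5 ± 0.48, adjusted p = 0.023), and its difference was -0.33 with the record set as a term (adjusted p = 0.792). Bmf, a killer gene, was at 161 to 292 CPM against 1.11 to 4.53 CPM (6.06 ± 0.85), and Bcl2l11, Mcl1 and Bik were also higher in thymocytes. Bok and Bak1 were higher in marrow, and the calls of Bcl2 and Bak1 were lost in 6 and 5 of the 7 leave-out fits (adjusted p up to 0.075 and 0.109).

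Of 12 DNA methylation genes, 2 were higher in thymocytes and 1 in marrow, beside 19.7% and 22.7% of all genes tested. The counts were 1 and 3 with the record set as a term, and 5 and 4 of 11 tested in a fit of the 7 libraries alone. Dnmt3b, the other de novo methyltransferase, was at 9.32, 8.63, 7.99 and 12.4 CPM in thymocytes against 143, 133 and 142 CPM (-3.86 ± 0.37, adjusted p = 1.13e-05). The methyl-CpG reader Mbd2 was higher in thymocytes (1.11 ± 0.13). Of 17 GIMAP and SLAM genes, 7 were higher in thymocytes and 2 in marrow, beside the same 19.7% and 22.7% of all genes. Sh2d1a, the SLAM adaptor SAP, was at 208, 221, 199 and 209 CPM with a single marrow library above 0 (0.128 CPM), and Slamf6 was at 128 to 158 CPM against 0.377 to 2.13 CPM (6.95 ± 0.74). Cd48 (-1.63 ± 0.43) and Cd244 (-4.78 ± 0.83), a ligand and its receptor, were the 2 higher in marrow.

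Of 32 interferon response genes, 5 were higher in thymocytes and 4 in marrow, beside 19.7% and 22.7% of all genes tested. The median of the list was -0.08. The counts were 3 and 2 with the record set as a term, and 10 and 12 in a fit of the 7 libraries alone. Gbp4, an interferon-induced GTPase, was at 215, 249, 266 and 232 CPM against 7.999, 9.62 and 1.40 CPM (5.33 ± 0.72). Its relative Gbp3 went the other way, at 7.70 to 13.1 CPM against 83.0 to 152 CPM (-3.63 ± 0.46). Ifitm3, which limits viral entry, was at 1.48 to 2.84 CPM against 116 to 213 CPM (-6.40 ± 1.26, and -3.14 with the record set as a term). Gbp6, Igtp, Stat2 and Zbp1 made up the rest of the thymocyte side, and Ifih1 and Irgm1 the rest of the marrow side. Irgm1 (adjusted p = 0.0481) lost its call when any 1 library was left out (adjusted p up to 0.129), and Igtp had an adjusted p of 0.057 without marrow replicate 1.

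No gene passed this test between the Dnmt3a genotypes of the thymocytes. Between KO3a_GFP and WT_GFP, 0 of 15508 genes (0.0%) passed in edgeR, 74 had an unadjusted p under 0.05, DESeq2 called 12 and limma voom 0. The 74 are far fewer than the share of 0.05 that a calibrated test gives with no difference at all. The test, with 2 libraries a genotype and a spread taken from the leukemias too, was thus strict here. Its misses do not show that the genotypes are alike. The same limit holds for whether the difference from marrow depends on the Dnmt3a genotype. This contrast tests that too, since the marrow is common to both. Against the marrow, WT_GFP alone gave 4942 genes and KO3a_GFP alone 4637.

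The share of a gene's estimated transcript counts held by its main transcript was compared for 12 genes with several transcripts, by an exact two-sided permutation test over the 4 thymocyte and 3 marrow libraries. The smallest p this design allows is 0.0286. Over 12 genes, a single gene at that p could not pass after Benjamini-Hochberg adjustment, and none passed. These misses therefore do not show that the shares are alike. Fyn, a kinase of the receptor, came nearest: its main transcript held 94.2% ± 1.8 of the gene (SD, n = 4) in thymocytes and 87.5% ± 1.8 (n = 3) in marrow, without overlap (exact permutation p = 0.0286, adjusted p = 0.257). For Ptprc, which encodes CD45 and is spliced by cell type, the shares were 79.1% ± 13.1 and 98.0% ± 1.2 (exact permutation p = 0.0857, adjusted p = 0.257), and the thymocyte libraries ranged from 67.1% to 97.5%.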

How the data were processed

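Estimated counts per gene and per transcript, in 1 table each for all 17 libraries, are the values the authors deposited, with no scaling for library depth. As stated in the submitters' processing notes, TopHat2 2.0.10, Cufflinks and Cuffdiff 2.1.1 (thymocytes) or 2.2.1 (marrow) were used on the mm9 build. For the counting step and any use of strand, the sources used here give nothing, so overlapping and near-identical genes are uncertain. The 2 technical runs of each WT_GFP library share 1 column. Between 98.12% and 98.54% of values were whole within 0.001, and all were rounded.

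In R 4.3.3, edgeR 4.0.16 (filterByExpr, TMM scaling, quasi-likelihood test) was fitted to all 17 libraries with group as the only term, which left 15508 of 23458 genes. The contrast was the mean of WT_GFP and KO3a_GFP minus WT3a_KIFLT3, two-sided, with Benjamini-Hochberg adjustment over all genes and a threshold of 0.05. CPM are counts divided by the TMM-scaled library size and multiplied by 1e6. The SE comes from the F statistic. DESeq2 1.42.0 and limma 3.58.1 (voom) were alternatives, as were other scalings, no filter, only the 7 libraries, each thymocyte genotype alone, the record set as a term, a replicate block and leaving out each library. The scripts were tested on simulated data.

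Named genes are fixed identity genes, the 10 largest differences each way with a mean of at least 50 CPM (no predicted or sex-linked names), the 3 largest called members of each list at 5 CPM or more, all called members of a list where at most 5 were called in that direction, and the 6 highest genes alike within 0.5. The members, the 32 gene lists and the tests were chosen with earlier results of these data known. Replicate numbers came from the labels. Same-numbered WT_GFP and KO3a_GFP libraries correlated at -0.353 in their deviations from the group means, and differently numbered ones at 0.353. With 2 libraries a group, these values mirror each other. The other same-numbered pairs were at -0.078 to 0.14. Main-transcript shares of some genes ran with the number: Tcf12 was at 64.4% and 54.1% in replicate 1 of WT_GFP and KO3a_GFP and at 31.0% and 11.2% in replicate 2. Those of Cd44, Tcf3 and Fyn did not. Whether the numbers pair the samples is thus not settled. Of 30 genes with names starting with Act, 28 are listed at 0 in all 17 libraries and were not analysed. A few genes named by the rule are not reported here. Coordinates are those of the deposited mm9 gene models, and promoter sequences are from RefSeq.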

Additional observations from a re-analysis of the deposited data

How the results depend on the processing

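Of 150 genes named by the rules, 137 passed the test, and 81 did so under every alternative run. A replicate block, though pairing by number is not settled, gave 6567 genes and moved no count over all genes by more than 1.5 times. Among the lists it moved late neutrophil genes higher in marrow to 16 and monocyte genes to 9. B lineage and NK genes higher in thymocytes became 9 each, and cell cycle genes 4 higher in thymocytes and 5 in marrow. The crossed pairing, added after seeing the data, gave 6538. Without 1 library, 4768 to 5419 genes passed, 2275 to 2720 higher in thymocytes (812 to 943 at least 4-fold) and 2371 to 2884 in marrow (1434 to 1874 at least 4-fold), and between the genotypes 0 to 0. The fit of the 7 libraries alone, which tests 13644 genes, gave 9553, of which 4620 were higher in thymocytes, and 4 between the genotypes, where DESeq2 gave 12. In it glycolysis (17) and Toll-like receptor genes (11) higher in marrow, and BCL2 family (9), GIMAP and SLAM (12) and coreceptor genes (8) higher in thymocytes, also moved by more than 1.5 times. With limma voom, 8 interferon genes were higher in marrow and 10 NK genes, 6 B lineage and 5 dendritic cell genes in thymocytes. KO3a_GFP alone gave 2201 higher in marrow, 1271 of them at least 4-fold. With the record set as a term there were 3504 genes, 1836 higher in thymocytes, 1668 in marrow and 797 at least 4-fold higher in marrow, and 2692 of the original calls were among them in the same direction; the cause was not tested. That term reversed Csf1r to 0.37, Dnmt3a to -0.10, Xist to -6.69, Cfl1 to -0.12, Hnrnpk to -0.50 and, as the only gene that had passed, Prss16 to 1.48. Without 1 library Hbb-b1 ranged from -0.49 (without KO3a_GFP replicate 2) to 1.43, and Chd4 was 0.0 without KO3a_GFP replicate 2. Among the other genes near 0, Cfl1 became -0.06 with RLE scaling, -0.13 with upper quartile scaling, -0.10 with library size alone, -0.06 with DESeq2, -0.02 with WT_GFP alone, -0.01 with either block and -0.07 to 0.08 without 1 library. Hnrnpk became -0.05 (upper quartile) and -0.03 (library size), Gnai2 0.0 (RLE), -0.07 (upper quartile), -0.05 (library size) and 0.0 (DESeq2), and Pfn1 0.06 with KO3a_GFP alone. Marrow replicates 1 and 2, at 5253574 and 4933886 counts, limit what can be seen of genes near 1 CPM.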
